A study of Mus musculus with 4 samples.

Results

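Glycolysis, the entry of pyruvate into mitochondria and the response to low oxygen were followed through 36 genes in cells sorted from mouse bone marrow. The genes were taken as a list by symbol: 19 enzymes of the glycolytic steps and of lactate formation, 4 transporters of glucose and lactate, 5 genes of the pyruvate dehydrogenase complex and its kinases, and 8 regulators tied to hypoxia. Of these, 33 were measured through 70 probe sets annotated to 1 gene alone, out of 18193 genes measured that way in the whole data set. Gapdh was read only through 3 control probe sets and is given apart from the counts. Gpi1 and Eno1 were not analysed here. The list was chosen with earlier results of these data known.

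The cells were the Lin- CD45- CD31- Sca1- CD51+ fraction of total bone marrow of adult NOD.CB17-Prkdcscid/J mice. This strain carries the scid mutation, which blocks the development of B and T cells, and the design text calls the animals recipients. The sort, meant to enrich osteoblasts, selects for an integrin chain of bone cells (CD51) and against blood, endothelial and Sca1-bearing cells. Strain and sort were shared by both groups, and the labels name no treatment; the groups differed in the place the cells came from: the trabecular area, where bone is spongy (2 arrays), or the long bone area (2 arrays). The labels call the arrays biological replicates and do not say how many mice stand behind each, so p-values measure only the spread between these samples.

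Glycolysis splits glucose into pyruvate in the cytosol. Hexokinase traps the sugar, phosphofructokinase commits it, and pyruvate kinase releases the product. Pyruvate is either reduced to lactate by lactate dehydrogenase and exported, or carried into mitochondria and oxidised by the pyruvate dehydrogenase complex, which its kinases switch off. When oxygen is scarce, prolyl hydroxylases of the Egln family no longer mark HIF1A for degradation, and HIF raises the transcription of many glycolytic enzymes, of glucose transporters and of its own brakes. Bone marrow is known for low oxygen, and osteoblasts and maturing granulocytes are both known to lean on glycolysis.

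The deposited values were log expression, taken as log2 because RMA gives that scale, and set to a median of 0 over the 4 arrays for each probe set, so each value says where an array lay relative to the others and no level of a gene is known. A coarse band of level could still be read from the number step of the values, and a probe set is called bright here where that step was the one of log2 levels of 8 and above. Long bone array 2 stood apart, where 2493 of 45037 probe sets lay 2-fold or more from their median. The other arrays had 383 to 848 such probe sets. All 7 measured osteoblast markers lay lower on both trabecular arrays than on either long bone array, at a median of -1.75. At least 1 probe set was bright for the osteoblast markers Col1a1, Col1a2, Alpl and Sparc, but also for the neutrophil markers Elane, Mpo, Ngp and Ltf and for Ptprc, the gene of CD45 that the sort selects against.

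Of the 33 measured members, 27 were higher in the trabecular area, where 54.6% of all genes were, and 20 were higher with no overlap between the areas, against 29.9% of all genes. No member was lower with no overlap, against 21.4% of all genes. Of the members' 70 probe sets 56 were higher, against 48.9% of all probe sets. The median log2 difference, trabecular minus long bone, was 0.46 over the members and 0.03 over all genes. Genes with at least 1 bright probe set leaned the same way as a whole: 68.7% of 8405 such genes were higher, 42.1% were higher with no overlap, and their median was 0.17. Of the 24 members with a bright probe set, 20 were higher and 17 were higher with no overlap, with a median of 0.50. The 9 members without one had a median of 0.08 (0.12 to 0.15 with 1 array left out). Whether a lower level made these differences smaller was not tested. Among these 9, the band of level could not be read for Pfkm, nor for part of the probe sets of Pfkp and Slc16a1.

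None of these differences passed the test. In limma's moderated test with Benjamini-Hochberg adjustment 0 of the 33 members and 0% of all genes had an adjusted p under 0.05, and the lowest adjusted p of a member was 0.24, for Pdha1. At an unadjusted p under 0.05 there were 13 members, all of them higher in the trabecular area, where 10.8% of all genes and 17.1% of the genes with a bright probe set met the same condition. With 2 arrays against 2 an exact permutation test cannot reach 0.05. In bulk samples fewer cells of a type and less RNA per cell cannot be told apart.

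**Figure D1:**
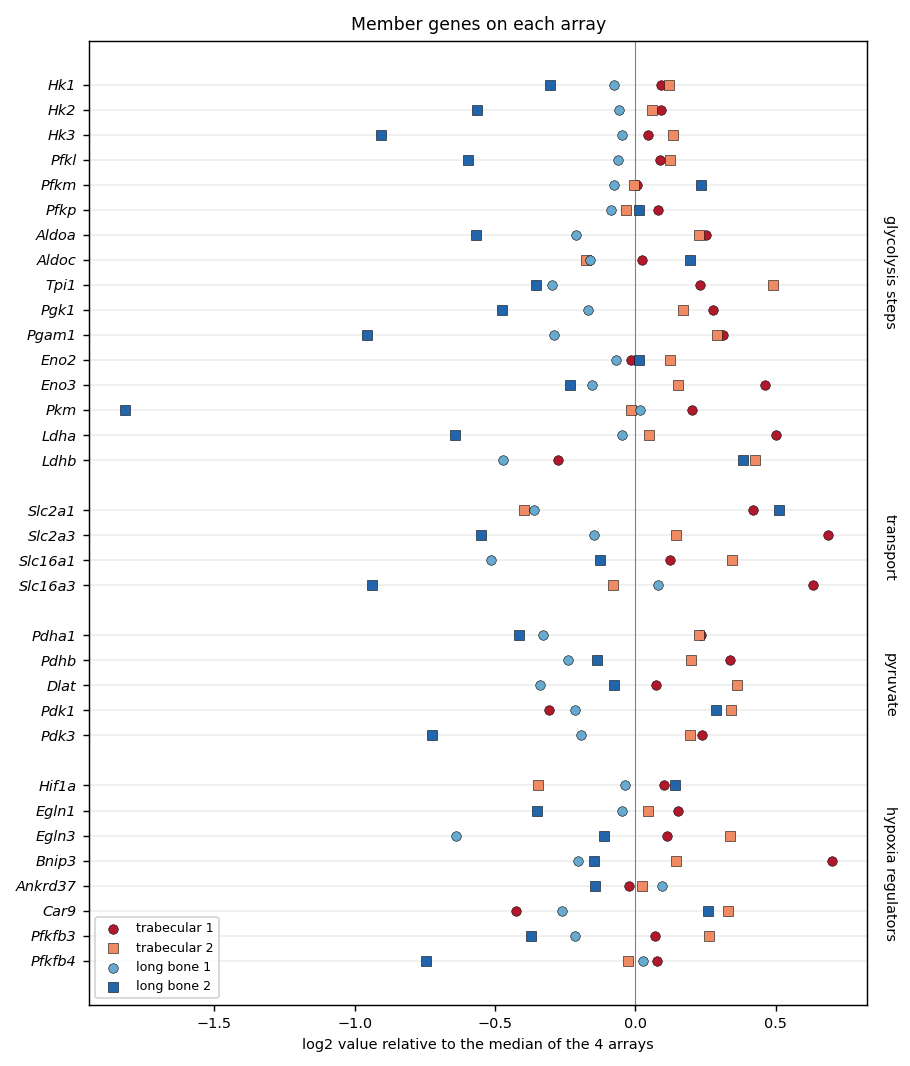
Log2 value of each of the 33 measured members on each array, relative to the median of the 4 arrays, with genes in rows ordered by role and 1 symbol per array. Long bone array 2 was the lowest of the 4 for 19 members, with Pkm farthest out at -1.82.

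The first steps of glycolysis were covered by 3 hexokinases, which phosphorylate glucose, and 3 phosphofructokinases. Hk1 read 0.09 and 0.12 in the trabecular area (arrays 1 and 2, as throughout) and -0.08 and -0.30 in the long bone area, a log2 difference of 0.30 (SE 0.14). Its bright probe set overlapped between the areas, with a difference of 0.15, and the probe set that was not bright differed by 0.45. The values of Hk2, in the same order of arrays, were 0.09, 0.06, -0.06 and -0.56, and its difference was 0.39 (SE 0.20). Hk3, the hexokinase of white blood cells, read 0.05, 0.13, -0.05 and -0.91, a difference of 0.57 (SE 0.31). All 3 hexokinases were thus higher on both trabecular arrays, and without long bone array 2 the differences of Hk1, Hk2 and Hk3 were 0.18, 0.14 and 0.14. Pfkl, the liver-type phosphofructokinase, followed the same course at 0.09, 0.12, -0.06 and -0.60 (difference 0.44, and 0.17 without long bone array 2). Its 3 probe sets disagreed, with differences from -0.25 to 0.90. The muscle-type and platelet-type enzymes Pfkm and Pfkp, neither with a probe set read as bright, overlapped between the areas at -0.08 and 0.06.

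The middle of the pathway was covered by aldolase, triosephosphate isomerase, phosphoglycerate kinase and phosphoglycerate mutase. Aldoa, the main aldolase outside liver and brain, read 0.25 and 0.23 in the trabecular area and -0.21 and -0.57 in the long bone area, and was 1.55-fold higher (log2 difference 0.63, SE 0.17, limma adjusted p = 0.26). All 5 of its probe sets were higher, by 0.20 to 0.96, and all 5 carry the array maker's mark for probes that may also read similar sequences. Aldoc, the brain-type aldolase, overlapped between the areas (difference -0.09). Tpi1, triosephosphate isomerase, read 0.23 and 0.49 against -0.30 and -0.36, and its difference of 0.69 (SE 0.15, adjusted p = 0.242) was among the least dependent on any array, with values of 0.56 to 0.82 when 1 array was left out. Pgk1, which makes the first ATP of the pathway, was at 0.28 and 0.17 against -0.17 and -0.48 (difference 0.55, SE 0.16). Its 3 probe sets gave 0.29, 0.43 and 0.93. Pgam1, phosphoglycerate mutase, read 0.31 and 0.29 against -0.29 and -0.96, and was 1.9-fold higher (0.93, SE 0.25, adjusted p = 0.26). The sign held without long bone array 2, at 0.59.

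Gapdh, which oxidises glyceraldehyde phosphate between these steps, was readable only through the control probe sets for its 3' end, middle and 5' end. Their log2 differences were 0.48, 0.92 and 1.30, all with no overlap. The 3' probe set read 0.15 and 0.07 against -0.07 and -0.67, and the 5' probe set 0.47 and 0.16 against -0.16 and -1.82. The 5' minus 3' gap, a sign of RNA integrity and of how far amplification reached, was therefore -1.16 on long bone array 2 and -0.09 to 0.31 on the others. The control probe sets of beta-actin (Actb) showed no such gap on long bone array 2, at -0.53 (3' end) and -0.57 (5' end). The gap on that array thus rests on the Gapdh probe sets alone. Its part in the low values of long bone array 2 was not tested.

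At the lower end of glycolysis the values spread more. Eno3, the muscle-type enolase, read 0.46 and 0.15 against -0.15 and -0.23 (difference 0.50, SE 0.16), and Eno2, the neuronal type, overlapped at 0.08. Pkm, pyruvate kinase, had the largest difference of any member, 1.00 (SE 0.63), and its areas overlapped: the arrays read 0.20 and -0.02 in the trabecular area and 0.02 and -1.82 in the long bone area. Without that last array the difference of Pkm was 0.08. Ldha, the lactate dehydrogenase subunit that favours lactate formation, read 0.50 and 0.05 against -0.05 and -0.64 (difference 0.62, SE 0.27, and 0.32 without long bone array 2, 0.39 without trabecular array 1). Ldhb, the subunit of oxidative tissues, read -0.28 and 0.43 in the trabecular area and -0.47 and 0.38 in the long bone area. It was high on both arrays numbered 2 and low on both numbered 1, with a difference of 0.12 (95% interval -0.91 to 1.15).

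The isoenzymes of a step did not all move alike by value. Of the 16 measured genes of the glycolytic steps, 11 had a bright probe set. All 11 were higher in the trabecular area, at a median of 0.57, and 9 did not overlap. Without long bone array 2 that median was 0.32, and 10 of the 11 were higher without trabecular array 2 or without long bone array 1. The other 5 (Pfkm, Pfkp, Aldoc, Eno2 and Eno3) had a median of 0.06 (0.00 to 0.11 with 1 array left out), 3 were higher, and Eno3 was the 1 with no overlap. Ldhb, though bright, overlapped between the areas. The band of level could not be read for Pfkm, nor for part of the probe sets of Pfkp. Smaller differences of the isoenzymes without a bright probe set and a weaker reading of them cannot be told apart from these values.

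**Figure D2:**
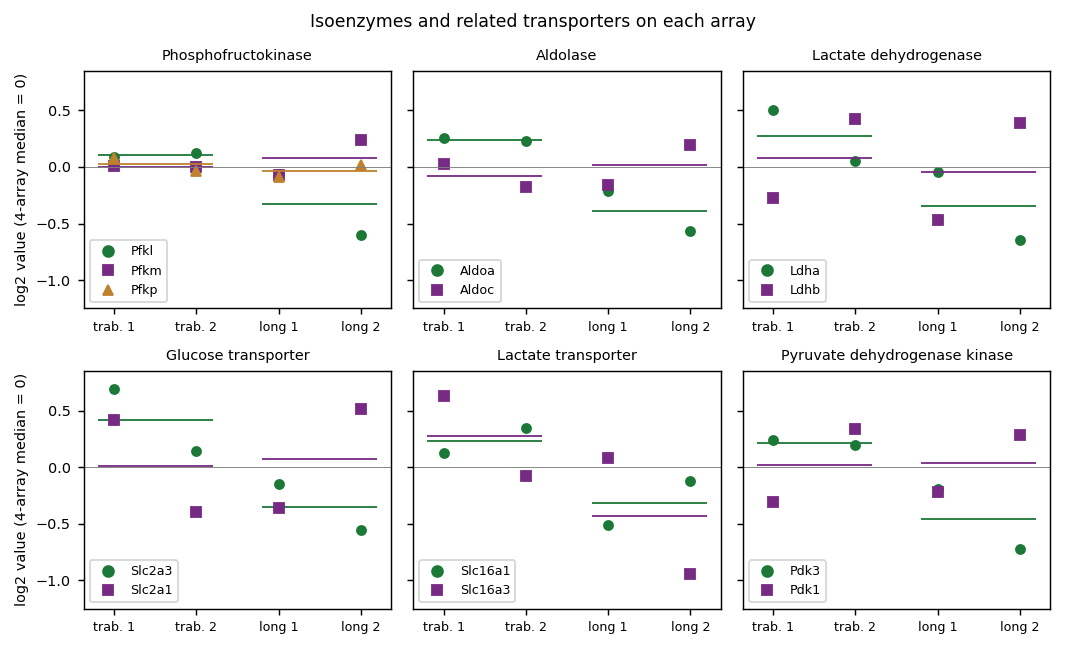
Log2 values on each array (points, y axis, 4-array median set to 0) and area means (lines) for 6 sets of isoenzymes or related transporters. Pfkl, Aldoa, Ldha, Slc2a3 and Pdk3 did not overlap between the areas, while Pfkm, Pfkp, Aldoc, Ldhb, Slc2a1 and Pdk1 did; of the lactate transporters Slc16a1 did not overlap and Slc16a3 did.

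The transporters differed among themselves. Slc2a3 (GLUT3), a glucose carrier of high affinity found on neurons and white blood cells, read 0.69 and 0.14 in the trabecular area and -0.15 and -0.55 in the long bone area, and was 1.7-fold higher (0.76, SE 0.25, adjusted p = 0.297). Its 4 probe sets agreed in sign, at 0.42 to 0.96, and the difference was 0.49 without trabecular array 1. Slc2a1 (GLUT1), the glucose carrier that osteoblasts are known to rely on, read 0.42 and -0.40 against -0.36 and 0.51. It was high on trabecular array 1 and long bone array 2 and low on the other two, and its difference of -0.06 (95% interval -1.17 to 1.04) turned positive after quantile normalization, over probe sets without a suffix letter, and in 2 of the 4 fits that left out an array. Slc16a1 (MCT1), which carries lactate and pyruvate in either direction, read 0.12 and 0.35 against -0.51 and -0.12 (0.55, SE 0.19, and 0.36 without long bone array 1). Slc16a3 (MCT4), the lactate exporter of glycolytic cells, differed by 0.70 (SE 0.43), but read -0.08 on trabecular array 2 and 0.08 on long bone array 1, so the areas overlapped.

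The 3 subunits of the pyruvate dehydrogenase complex, which opens the mitochondrial path, all had higher values on both trabecular arrays. Pdha1, the E1 alpha subunit, read 0.24 and 0.23 on the trabecular arrays and -0.33 and -0.41 on the long bone arrays. It was 1.52-fold higher, with a log2 difference of 0.60 (SE 0.12, adjusted p = 0.24) that stayed between 0.56 and 0.65 whichever array was left out. Pdhb, the E1 beta subunit, read 0.34 and 0.20 against -0.24 and -0.14 (0.46, SE 0.13). Dlat, the E2 subunit, read 0.08 and 0.36 against -0.34 and -0.08 (0.43, SE 0.17), with 0.28 without trabecular array 2 and 0.29 without long bone array 1. All 7 probe sets of these 3 genes were higher in the trabecular area. Unlike most glycolytic enzymes, Pdhb and Dlat were lowest on long bone array 1 and not on array 2.

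The kinases that inactivate this complex did not share 1 pattern. Pdk3 read 0.24 and 0.19 against -0.19 and -0.72 (0.67, SE 0.21, adjusted p = 0.286, and 0.41 without long bone array 2). Pdk1, a classic HIF target, read -0.31 and 0.34 against -0.22 and 0.29, a difference of -0.02 (95% interval -0.81 to 0.77) that turned to 0.09 after quantile normalization. Like Ldhb, Pdk1 was high on both arrays numbered 2. Of its 4 probe sets 2 were higher and 2 lower.

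Hif1a itself, the oxygen-regulated subunit of the factor, was not higher in the trabecular area. It read 0.10 and -0.35 there and -0.04 and 0.14 in the long bone area, and all 4 of its probe sets were lower, by -0.08 to -0.24 (gene difference -0.17, 95% interval -0.70 to 0.35, and 0.05 without trabecular array 2). HIF1A is regulated mainly through protein stability, which an array does not read. Of the prolyl hydroxylases that mark it, the HIF targets Egln1 and Egln3 were higher by value with no overlap. Egln3 (PHD3) read 0.11 and 0.34 against -0.64 and -0.11 (0.60, SE 0.22, and 0.34 without long bone array 1), and Egln1 (PHD2) 0.15 and 0.05 against -0.05 and -0.35 (0.30, SE 0.16, and 0.14 without long bone array 2).

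Of the HIF targets outside the pathway, Bnip3, a mediator of mitophagy, read 0.70 and 0.15 against -0.21 and -0.15 (0.60, SE 0.22). Trabecular array 1 carried much of that, and without it the difference was 0.32. Car9, carbonic anhydrase IX, is one of the most hypoxia-specific targets known. It read -0.42 and 0.33 against -0.26 and 0.26, with a difference of -0.05 (95% interval -0.92 to 0.82), and Ankrd37 differed by 0.02 with values within 0.14 of the median on every array. Of the bifunctional enzymes that set the level of the phosphofructokinase activator, Pfkfb3 read 0.07 and 0.26 against -0.22 and -0.37 (0.46, SE 0.14, 0.36 to 0.56 with 1 array left out). Pfkfb4 overlapped, with -0.75 on long bone array 2 and values of -0.03 to 0.08 on the others, and its difference of 0.39 was -0.00 without that array.

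**Figure D3:**
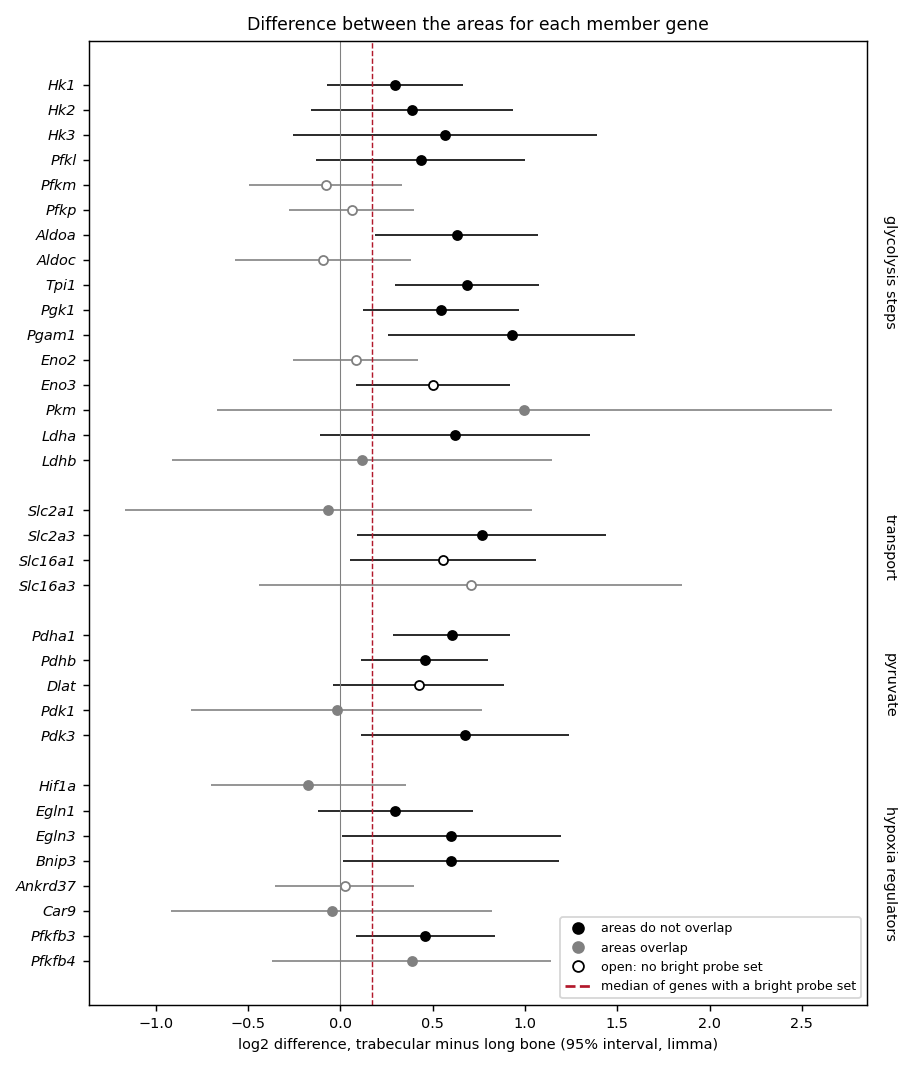
Log2 difference between the areas for each measured member (x axis, trabecular minus long bone, points) with its 95% interval from limma (bars). Filled black points are genes whose areas did not overlap, grey points genes whose areas overlapped, open points genes without a bright probe set, and the dashed line at 0.17 is the median of all genes with a bright probe set.

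Set side by side, the glycolytic steps had a median difference of 0.47 (14 of 16 higher, 10 with no overlap) and the hypoxia regulators one of 0.34 (6 of 8 higher, 4 with no overlap). The transporters had 3 of 4 higher with a median of 0.63, and the pyruvate dehydrogenase genes 4 of 5 with a median of 0.46. Both of the first medians depended on long bone array 2. Without it they were 0.18 for either list, where all genes were at 0.05 and genes with a bright probe set at 0.11. The median of the pyruvate dehydrogenase genes was 0.51 without that array. On the arrays themselves the glycolytic steps had medians of 0.09 and 0.12 in the trabecular area and -0.08 and -0.42 in the long bone area, and the hypoxia regulators 0.09 and 0.10 against -0.13 and -0.14. No test of the difference between the lists was made, since the genes were chosen with results known. Without long bone array 1 the median of the glycolytic steps was 0.67, and that of the transporters was 0.42 without trabecular array 1. In all, 7 members kept their difference within 1.5 times when any 1 array was left out: Aldoa, Tpi1, Pgk1, Eno3, Pdha1, Pdhb and Pfkfb3. Leaving out long bone array 1 enlarged other differences: Hk2 was then at 0.64, Hk3 at 1.00, Pfkl at 0.70, Pkm at 1.91, Slc16a3 at 1.22 (against 0.19 without long bone array 2) and Pfkfb4 at 0.77. In that fit 5 members passed limma's test at an adjusted p under 0.05 (Hk3, Aldoa, Pgam1, Pkm and Pdk3), as did 1603 of all genes. It rests on long bone array 2 as the lone array of its area, assumed to vary like the trabecular arrays.

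The core of the element that HIF binds reads ACGTG or GCGTG, and the 250 bases before the start of transcription were searched for both on either strand. RefSeq (GRCm38.p6) gave 48 such windows for 35 of the 36 members, and 39 of them (81.2%) held at least 1 match, against 38.6% of all 32851 windows. The members' windows were also richer in the dinucleotide CG, which both cores contain, with a median of 14 per window against 6. All 9 windows of the hypoxia regulators and 23 of 30 windows of the glycolytic enzymes held a match. Windows of a gene can overlap, as for Aldoa, Eno1 and Pfkm, so the same match can count in more than 1 window. The core ACGTG also lies within CACGTG on both strands, the letters of the E-box that other factors bind. Of the 48 windows 6 (12.5%) held CACGTG, against 6.02% of all windows. A match is a description of letters and not a bound site.

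Matches were found before members with and without overlap between the areas. The windows of 4 members with no overlap (Ldha, Pgk1, Pgam1 and Bnip3) and of 2 with overlap (Slc2a1 and Car9) are printed to show this, each with the 250 bases before the first listed start, read along the gene's strand, with matches on either strand in capitals.
Ldha, chr7:46845554-46845803, plus strand: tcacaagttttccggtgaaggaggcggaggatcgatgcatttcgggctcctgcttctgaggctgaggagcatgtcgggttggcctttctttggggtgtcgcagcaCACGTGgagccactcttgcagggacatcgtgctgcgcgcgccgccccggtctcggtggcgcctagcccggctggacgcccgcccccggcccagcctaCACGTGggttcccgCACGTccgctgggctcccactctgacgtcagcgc
Pgk1, chrX:106186850-106187099, plus strand: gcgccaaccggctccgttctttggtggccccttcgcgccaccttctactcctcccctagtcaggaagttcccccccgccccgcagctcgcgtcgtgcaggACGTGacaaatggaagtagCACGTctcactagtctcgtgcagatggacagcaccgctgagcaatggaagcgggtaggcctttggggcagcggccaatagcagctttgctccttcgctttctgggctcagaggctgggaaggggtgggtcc
Pgam1, chr19:41911621-41911870, plus strand: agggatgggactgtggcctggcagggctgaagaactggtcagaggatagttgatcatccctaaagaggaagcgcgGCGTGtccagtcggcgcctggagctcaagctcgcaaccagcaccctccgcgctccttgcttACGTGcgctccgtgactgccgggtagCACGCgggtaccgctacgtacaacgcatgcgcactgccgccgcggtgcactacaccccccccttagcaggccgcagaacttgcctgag
Bnip3, chr7:138909507-138909756, minus strand: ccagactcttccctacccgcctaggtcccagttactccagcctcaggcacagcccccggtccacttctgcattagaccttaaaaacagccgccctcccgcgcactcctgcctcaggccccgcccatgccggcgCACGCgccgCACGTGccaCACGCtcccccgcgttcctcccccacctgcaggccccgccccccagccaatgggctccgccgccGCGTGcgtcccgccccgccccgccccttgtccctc
Slc2a1, chr4:119108495-119108744, plus strand: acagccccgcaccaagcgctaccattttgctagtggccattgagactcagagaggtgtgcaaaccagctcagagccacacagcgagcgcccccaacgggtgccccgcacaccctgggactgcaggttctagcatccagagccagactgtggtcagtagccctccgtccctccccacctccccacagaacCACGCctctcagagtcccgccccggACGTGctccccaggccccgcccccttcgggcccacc
Car9, chr4:43506776-43507025, plus strand: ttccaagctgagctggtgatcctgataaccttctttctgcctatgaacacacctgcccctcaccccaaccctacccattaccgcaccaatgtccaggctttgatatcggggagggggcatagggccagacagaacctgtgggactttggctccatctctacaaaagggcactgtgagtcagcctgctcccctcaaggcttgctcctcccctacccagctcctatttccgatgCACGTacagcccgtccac
Ldha held 5 matches, 4 of them as both strands of 2 CACGTG sites, and Pgk1 held ACGTG once on each strand. Bnip3 held 2 of ACGTG and 3 of GCGTG, Pgam1 held 1 and 2, Slc2a1 1 of each, and Car9 a single ACGTG on the opposite strand, 18 bases before the start. Ldha and Slc2a1 thus both carry the core, while their differences between the areas were 0.62 and -0.06.

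Neighbouring branches of sugar metabolism were looked at through further lists. All 7 measured genes of the pentose phosphate pathway were higher, 5 with no overlap, at a median of 0.46, led by Taldo1 and Tkt, its transaldolase and transketolase, at 0.61 and 0.49. The 3 probe sets of Tkt ran from -0.02 to 1.04. Leaving out long bone array 1 put the list's median at 0.73. Leaving out long bone array 2 put it at 0.26, with Taldo1 at 0.39 and Tkt at 0.26. Of 16 citric acid cycle genes 14 were higher, 8 with no overlap, at a median of 0.23 (0.13 without trabecular array 2, with 11 higher), with citrate synthase Cs at 0.65 (SE 0.13, adjusted p = 0.24) and Sdhd, a succinate dehydrogenase subunit, at 0.58. Gluconeogenesis was even, with 5 of 8 higher and a median of 0.08 (-0.12 without long bone array 1, 0.17 without array 2). Its glucose-6-phosphate carrier Slc37a4 differed by 0.45, and its last enzyme G6pc by -0.21 (-0.12 without long bone array 2). Of the 19 other glycolytic genes measured 11 were higher and the median was 0.04 (0.01 without trabecular array 1, 0.12 without trabecular array 2). They include the testis lactate dehydrogenase Ldhc at 0.90 (0.49 without trabecular array 1) and the phosphoglucomutase Pgm2 at 0.69. Pgm1 and the insulin-dependent glucose transporter Slc2a4 were lower with no overlap, at -0.47 and -0.26, but the 2 probe sets of Pgm1 went opposite ways, at -1.47 and 0.53. No gene of these lists was called.

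The remaining genes of pyruvate entry went both ways, with 5 of 9 higher and a median of 0.13 (-0.02 without trabecular array 1). Mpc1, a subunit of the carrier that takes pyruvate into mitochondria, differed by 0.43, and Pdp1, a phosphatase that reactivates the complex, by 0.38. The phosphatase Pdp2 was at -0.33 (-0.22 without long bone array 1). Pdk4, the kinase that fasting and fat use induce, was lower by value at -0.07 and -0.71 against 0.07 and 1.38, a difference of -1.11 (SE 0.50, adjusted p = 0.368) that was -0.46 without long bone array 2 and -1.77 if the other long bone array was left out. It thus ran against Pdk3.

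The wider HIF pathway was also mixed, with 6 of 11 genes higher and a median of 0.00 (0.02 to 0.09 with 1 array left out). Hif1an, the asparaginyl hydroxylase that blocks HIF activity, and Egln2 (PHD1) were at 0.60 and 0.57 (Egln2 0.38 without long bone array 2). Epas1, which encodes the alternative subunit HIF2A, read -0.01 and -0.72 against 0.01 and 2.11, a difference of -1.43 (SE 0.75) that was -0.38 without long bone array 2 and -2.48 if the other long bone array was left out. Rbx1, a subunit of the ligase that degrades HIF, was at -0.39 (-0.16 without trabecular array 2). Other subunits of that ligase did not share its direction. Vhl and Eloc were at 0.50 and 0.55 with no overlap (Vhl 0.38 without trabecular array 1), and Cul2 and Elob overlapped at 0.00 and -0.08. Among 19 other HIF targets 11 were higher and 8 lower, with a median of 0.08 (-0.10 without long bone array 1, -0.00 without trabecular array 2). Ddit4, an inhibitor of mTOR signalling, read 0.94 and 0.46 against -0.46 and -0.74 (1.30, SE 0.22, adjusted p = 0.24), and Ero1a, an oxidase of the endoplasmic reticulum, was at 0.67 (0.14 without long bone array 2, 1.21 without array 1 of that area). Plod2 and P4ha2, HIF targets that modify collagen, lay the other way, at -1.23 (SE 0.15, adjusted p = 0.195) and -1.01 (SE 0.15, adjusted p = 0.234), with no overlap and with little change when 1 array was left out.

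**Figure D4:**
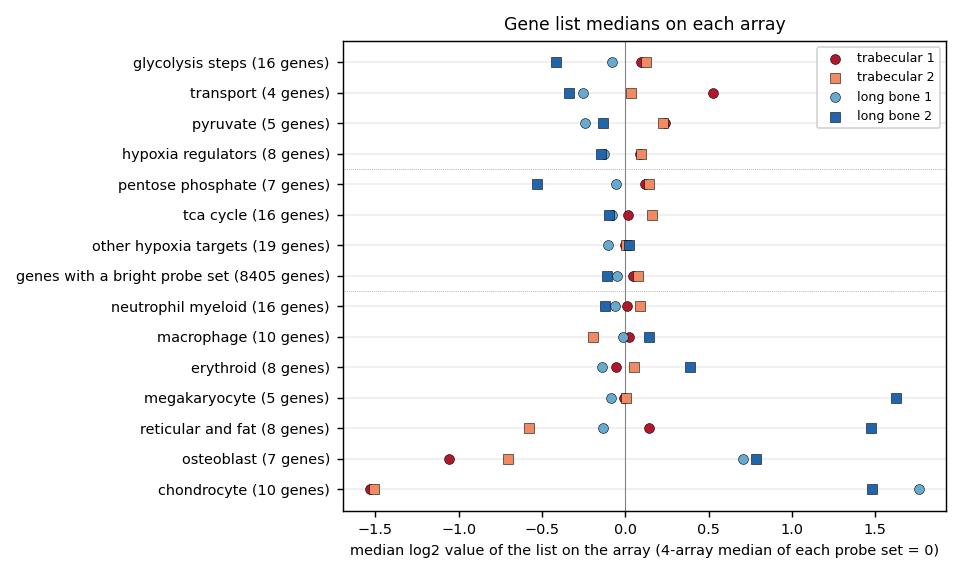
Median log2 value of each plotted gene list on each array (x axis, 4-array median of each probe set at 0), with the number of measured genes beside each list. The 4 lists of members lie above 0 on both trabecular arrays and below 0 on both long bone arrays. So do the pentose phosphate, citric acid cycle and neutrophil lists and the genes with a bright probe set. Reticular, fat and megakaryocyte genes are highest on long bone array 2.

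Markers of other cells moved with these genes on single arrays. Of 16 measured neutrophil genes 11 were lowest on long bone array 2, as were 11 of the 16 glycolytic genes, where 32.4% of all genes and 46.7% of those with a bright probe set were. Itgam, Mmp9 and Mmp8, genes of maturing granulocytes, differed by 1.68, 1.52 and 1.12, and Itgam read 1.03, 0.22, -0.22 and -1.87, in the order of arrays used above. Without long bone array 2 Itgam was at 0.85 and Mmp9 at 0.91, and without trabecular array 1 Mmp8 was at 0.73. The list as a whole had a median difference of 0.07 (0.33 without trabecular array 1 and 0.03 to 0.12 in the other 3 leave-outs), with per-array medians of 0.01, 0.09, -0.06 and -0.12. The 8 reticular and fat genes were all highest on long bone array 2 (median 1.47, against -0.58 to 0.14 on the others), led by Adipoq at 4.49, and so were the megakaryocyte genes Pf4 at 4.37 and Ppbp at 2.25. The median difference of the chondrocyte genes was -3.18, with all 10 lower in the trabecular area. The macrophage, erythroid, lymphocyte and endothelial lists had median differences of -0.26, -0.15, -0.01 and 0.01. When 1 array was left out these ran from -0.35 to -0.02, -0.41 to 0.09, -0.18 to 0.19 and -0.04 to 0.09. The lymphocyte list was spread, with 4 of 9 genes higher and 5 lower. Its Cd3d differed by 1.66 with no overlap (1.15 to 2.18 with 1 array left out), and its Vpreb1 by -1.23 with overlap (-2.75 to 0.29). Of the sort antigens, Pecam1 (CD31) differed by -0.02 (-0.09 to 0.05 with 1 array left out). Itgav (CD51) was at -0.13 over 5 probe sets that ran from -1.16 to 0.61. Ptprc was at -0.34 (-0.88 without long bone array 2, 0.20 if array 1 of that area is left out instead), and its 2 probe sets went opposite ways, at -1.28 and 0.60. The part of these cells in the differences of the metabolic genes was not tested. The 9 spiked hybridisation control probe sets, which read no cellular RNA, had a median difference of -0.39, and all 9 were lower on the trabecular side.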

How the data were processed

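RNA of the sorted cells was amplified, labelled with biotin and hybridised to arrays, per the labels' protocols; a human array is named in the design text, whereas the annotation of the probe sets is that of a mouse array. The deposited values are log expression, taken as log2 here; the submitters' processing notes list RMA without its version. These deposited log2 values were centred per probe set on the median of the 4 arrays, as the values show, which keeps differences and removes levels, and makes the middle values of a probe set mirror images. What did the centring, and which log base applies, is not given in the sources used here. Control probe sets (64 of 45101) were left out of the tests, and each gene was given the average of the probe sets that name no other gene (34945 probe sets, 18193 genes). Groups came from the sample titles. The areas were compared over all genes with limma 3.58.1 (R 4.3.3; functions lmFit, eBayes; 2 residual and 2.50 prior degrees of freedom, two-sided, Benjamini-Hochberg). The members and gene lists were chosen with earlier results of these data known.

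The band of level came from the 32-bit number step, read for 41631 probe sets. Tested on simulated data, it called 100% of probe sets at 8 and above bright, and 5.98% of those at 4 to 8. All arrays of a simulated probe set lay in the same band, so probe sets that cross 8 were not simulated. A probe set that falls below 8 on some arrays can take a finer step and then is not called bright. The limma fit was also tested on simulated data: at an adjusted p under 0.05 it called 15 of 67 genes changed 2-fold, 47 of 67 changed 4-fold and 59 of 66 changed 16-fold, with 7 unchanged genes called. The simulated noise was normal and independent between genes, so these shares need not hold for the real arrays. There no gene was called, including the chondrocyte gene Comp, which differed 36.2-fold (limma adjusted p = 0.131). All members are named. Of the other pathway lists, up to 2 genes per direction with the largest difference and no overlap are named. Beside Rbx1, further subunits of its ligase are named as well. Of the marker lists, some of the largest differences and genes picked after their values were seen are named. Alternatives were quantile normalization, subtracted array medians, other choices of probe sets, a variance trend on the band, the replicate number as a block and leaving out each array. The replicate numbers were not used as pairs, since the labels do not say that a number marks a shared animal or day. Same-numbered arrays did not deviate together across all genes (r = -0.11), but with 2 arrays per area this cannot settle whether they were paired. Precision is limited by having 2 arrays per area.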

Additional observations from a re-analysis of the deposited data

How the results depend on the processing

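The median of the glycolytic steps lay between 0.18 and 0.67 and that of the hypoxia regulators between 0.18 and 0.39 when 1 array was left out. The hypoxia median was 0.24 after quantile normalization, 0.37 with the widest probe set per gene and 0.39 with bright probe sets only. The glycolysis median was 0.37, 0.56 and 0.62 (11 genes) in the same order, against 0.47 in the main fit. Over probe sets with no suffix letter it was 0.39 (9 genes), while the hypoxia median stayed at 0.34. Of all genes, 1 was called over probe sets with no suffix letter, 2 with the widest probe set and 0 to 1603 when 1 array was left out; 2 probe sets were called with a variance trend, and 0 to 5 members when 1 array was left out. With the replicate number as a block 0 genes and 0 probe sets were called by limma (2450 and 5707 at an unadjusted p under 0.05, against 2811 and 7325 without the block). With the numbers crossed, chosen after seeing the data, 0 genes were called (2709 unadjusted). Bright probe sets alone moved the median of all genes to 0.21, with 69.7% higher. Signs turned for Slc2a1 (0.0008 after quantile normalization, 0.0575 with no suffix letter, -0.50 to 0.37 with 1 array left out), Pdk1 (0.0897 after quantile normalization, 0.18 with the widest probe set, -0.34 to 0.30), Ankrd37 (-0.0135 after quantile normalization, -0.10 to 0.14), Aldoc (0.0404 with no suffix letter, -0.27 to 0.0845), Ldhb (-0.0720 with the widest probe set, -0.31 to 0.55) and Pfkl (-0.25 with no suffix letter). With 1 array left out they also turned for Car9 (-0.42 to 0.33), Hif1a (-0.40 to 0.0505), Pfkm (-0.2349 to 0.0757) and Pfkfb4 (-0.0012 to 0.77). Beyond the arrays left out, the cause was not tested. The 2 arrays per area and the missing levels limit what can be read.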

Other observations

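Some values followed the replicate number and not the area. Ldhb, Pdk1 and Car9 were low on both arrays numbered 1 and high on both numbered 2. Primary granule genes of immature neutrophils had the same order: Elane, neutrophil elastase, read -1.04 and 0.69 in the trabecular area (arrays 1 and 2) and -0.69 and 0.82 in the long bone area, and Ctsg, cathepsin G, read -1.07 and 1.06 against -0.44 and 0.44. These genes were picked after their values were seen, and no test was made.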
